A study of Mus musculus with 44 samples.

Results

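The astrocyte genes described here are Gfap, Aqp4, Slc1a2, Slc1a3, Aldh1l1, Gja1, Aldoc, S100b, Sox9 and Glul, read in ribosome-bound RNA that was pulled down from the Emx1 lineage of the mouse hippocampus. They were chosen by symbol: each row of the TRAP count table was named through its Ensembl identifier in the GENCODE annotation of GRCm38, and 10 of 10 symbols were found among 55335 rows. The same 10 symbols were found among 48474 rows of a second count table from wild-type mice. TRAP (translating ribosome affinity purification) recovers the RNA bound to tagged ribosomes, so a level here is a level of ribosome-bound RNA and not of total RNA.

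The mice carried Emx1-IRES-Cre and the NuTRAP reporter, which tags ribosomes with EGFP and nuclei with mCherry wherever Cre has acted, and all TRAP libraries came from males. Mice given early-life exercise (ELE) had a running wheel from postnatal day 21 to 41, sedentary mice had none, and tissue was taken on the day after. In 8 libraries (4 ELE, 4 sedentary) both hippocampi of a mouse went through simultaneous INTACT and TRAP (SIT), in which nuclei and ribosomes come from a single homogenate. In 12 libraries (3 ELE and 3 sedentary from the left hippocampus, and the same numbers from the right) TRAP was run by itself on one hippocampus of each mouse. The wild-type table holds 24 columns of bulk RNA from the left dorsal hippocampus of C57Bl/6J mice with mixed exercise and training histories. The paper describes these mice as males of the same age as the TRAP mice. Their labels list a wheel period of day 21 to 41 or, for some, one that ended earlier or began later. Most were also trained in an object location memory task shortly before tissue was taken, which the TRAP mice were not. The 24 columns could not be tied to single conditions and serve as 1 unlabelled reference. Emx1-Cre acts in the progenitors of dorsal forebrain excitatory neurons, and those progenitors also give rise to astrocytes, so a library of this lineage can hold RNA of both cell types. In these bulk samples, fewer astrocytes and less RNA per astrocyte cannot be told apart.

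Astrocytes take up glutamate and potassium released by neurons, return glutamine to them, move water at their endfeet and are coupled into a network by gap junctions. The 10 genes cover these tasks. Slc1a2 (GLT-1) and Slc1a3 (GLAST) encode the glutamate transporters, and Glul encodes glutamine synthetase. Aqp4 encodes the water channel of the endfeet, Gja1 encodes connexin 43, and Gfap encodes the intermediate filament that rises in reactive astrocytes. Aldoc (aldolase C) and Aldh1l1 (a folate enzyme) are metabolic, S100b encodes a calcium-binding protein, and Sox9 encodes a transcription factor of the glial lineage. Gfap lies on chromosome 11 at 102887336 to 102900912 of GRCm38 (minus strand), S100b on chromosome 10 at 76253853 to 76261159 (plus strand), Slc1a2 on chromosome 2 at 102658659 to 102790784 (plus strand) and Aldh1l1 on chromosome 6 at 90486427 to 90600203 (plus strand). All 10 are protein-coding.

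The TRAP libraries held 45895097 to 65767802 counts each and the bulk columns 39856044 to 61636303, and levels are given as CPM, the counts of a gene scaled to a common library total. Of the SIT libraries, the study left out 1 ELE library (mouse NT6.304) and 2 sedentary libraries (from NT7.2.3 and from NT7.2.4), and tests of SIT here used the 5 others unless stated. The 2 sedentary libraries left out had 8.64% and 9.64% of their counts on mitochondrial genes, against 0.0704% to 0.523% in the 17 libraries kept, and their summed microglia genes were at 224 and 231 CPM against 7.99 to 14.1 CPM. In all 3 libraries left out, summed inhibitory neuron genes were at 886 to 930 CPM, against 49.9 to 366 CPM in the 17 kept. The side of each hippocampus was taken from the study's list of mice. GEO's sample order, which was not used, would give the opposite side for all 12 libraries, so the names left and right below may be exchanged, which leaves the fold changes within a side as they are and turns the sign of those between sides.

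All 10 genes were well covered, with medians over the 20 TRAP libraries between 2150 counts (Aldh1l1) and 168400 counts (Slc1a2). To compare genes, levels were divided by the length of their merged exons. Per kilobase, Glul had the highest median level, at 484 CPM per kb, followed by Gfap at 383, Aldoc at 312, Slc1a2 at 222 and S100b at 153 CPM per kb. Slc1a3 followed at 69.6 CPM per kb, Aqp4 at 29.8, Gja1 at 17.3, Sox9 at 10.5 and Aldh1l1 at 8.74 CPM per kb. The ranges of neighbours in this order overlapped in every case, for example 243 to 607 CPM per kb for Glul and 152 to 979 for Gfap. The overlap of S100b with Slc1a3 came only from libraries the study left out. In those it kept, S100b was at 108 CPM per kb or more in SIT and 149 or more in separate libraries. The highest Slc1a3 value was 90.0. Slc1a2, at 129 to 314 CPM per kb, was above Slc1a3, at 35.6 to 90.0, without overlap. Gfap also varied most between libraries: its highest library held 6.46 times its lowest, and the other 9 genes ranged from 2.12 times (Aldoc) to 3.82 times (Gja1). The lowest Gfap library, NT7.2.4, is one the study left out, and over the 17 libraries kept the ratio was 3.53 for Gfap, 3.10 for Aqp4 and 1.5 to 2.43 for the other 8. Over the 12 separate libraries it was 3.18 for Gfap and 1.32 to 2.20 for the other 9.

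**Figure D1:**
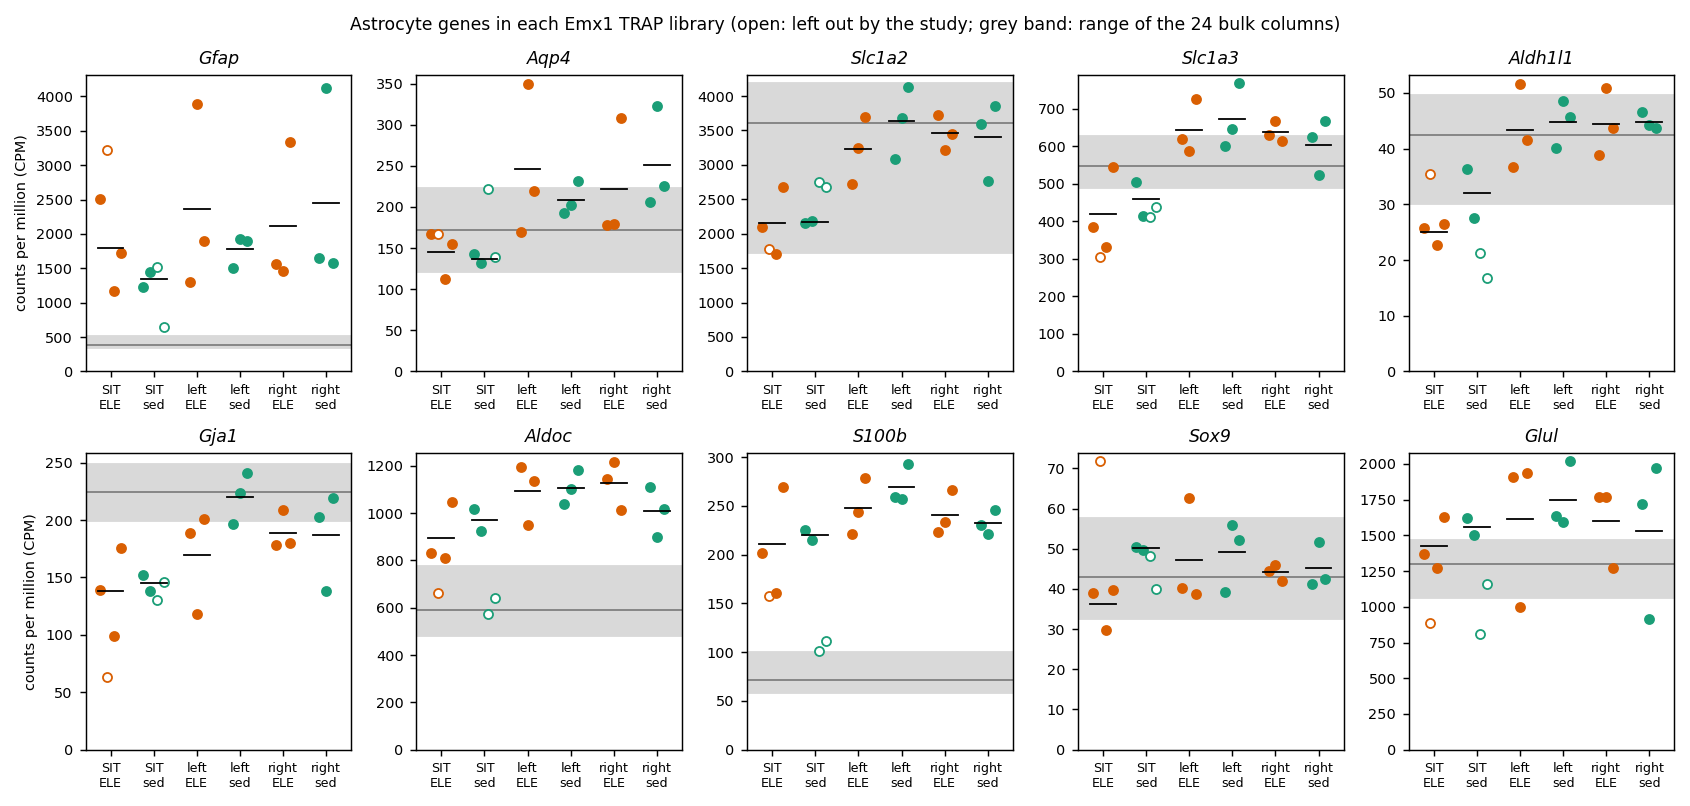
Level of each astrocyte gene (vertical axis, CPM from 0) in every Emx1 TRAP library by group, with ELE in orange and sedentary in green; black bars are means of the libraries kept by the study, open points are libraries it left out, and the grey band and line are the range and median of the 24 bulk columns. Gfap, at 640 to 4129 CPM, lies above the bulk band in every library, and 4 libraries above 3000 CPM stand apart from the rest.

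Whether the Emx1 pull-down keeps or loses astrocyte RNA was examined by setting the 20 TRAP libraries beside the bulk columns. From a heatmap of chosen markers, the paper reports astrocyte genes as reduced in TRAP against wild-type hippocampus, apart from a relative increase of Gfap. The medians of the astrocyte lists given below were above bulk instead, and the reason for this difference was not tested. Gfap was at 640 to 4129 CPM (median 1616) in TRAP and at 336 to 511 CPM (median 391) in bulk, so that its medians differed by 2.05 on the log2 scale (4.13-fold). S100b was at 101 to 293 CPM (median 228) against 58.0 to 100.3 CPM (median 71.9), a log2 ratio of 1.66. These were the 2 of 10 members for which every TRAP library exceeded every bulk column, which held for 6.26% of the 14335 genes with a median of at least 1 CPM in either table. The lowest S100b libraries, at 101 and 112 CPM, were the 2 sedentary SIT libraries that the study left out. Without the 3 libraries left out, Aldoc, at 811 to 1218 CPM, was above every bulk column as well, which made 3 of 10 members where 12.3% of genes were above and 11.6% below. None of the 10 members had every TRAP library below every bulk column, which held for 8.04% of genes.

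The remaining 8 genes overlapped between the tables when all 20 libraries were used. Aldoc had the highest ratio of them, at 574 to 1218 CPM (median 1018) in TRAP against 482 to 776 CPM (median 592) in bulk, a log2 ratio of 0.78. Glul had a log2 ratio of 0.31, Slc1a3 and Aqp4 both 0.12, and Sox9 0.02, which became -0.02 when mitochondrial and ribosomal RNA genes were left out of the totals. The log2 ratio was -0.11 for Aldh1l1, -0.31 for Slc1a2 and -0.34 for Gja1. With the 12 separate libraries alone it was 0.05 for Aldh1l1, -0.04 for Slc1a2, -0.17 for Gja1, 0.31 for Aqp4, 0.20 for Slc1a3 and 0.42 for Glul. Gja1 was at 63.0 to 241 CPM (median 177) in TRAP and at 199 to 249 CPM (median 224) in bulk. The spread of log2 CPM over the TRAP libraries was 0.28 (SD, Sox9) to 0.65 (SD, Gfap), and the ratios of 7 genes, all but those of Gfap, S100b and Aldoc, were smaller than that SD of the same gene. No test was run between the tables, which differ in tissue, preparation and annotation. The median log2 ratio was 0.12 over the 10 members and 0.0041 over all 14335 genes.

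The lists of the hippocampal cell types spread widely. The 40 further astrocyte genes had a median log2 ratio of 0.44, and 1 of them (Slc14a1, a urea transporter) was above every bulk column and 1 (Slco1c1, a thyroid hormone transporter also made by endothelium) below. The highest ratios among them belonged to Slc14a1 (1.62), Mt1 (1.58, a metallothionein), Slc25a18 (1.52, a mitochondrial glutamate carrier) and Ndrg2 (1.40). The lowest belonged to Slco1c1 (-1.24), Etnppl (-0.81), Gli3 (-0.56) and Chrdl1 (-0.55). Excitatory neuron genes had a median of 0.44. By contrast, the median was -5.73 for microglia genes, -5.36 for endothelial genes, -4.43 for meningeal genes and -4.10 for inhibitory neuron genes. Choroid plexus and ependymal genes (-1.52), oligodendrocyte lineage genes (-1.24) and neural stem and progenitor genes (-0.92) were between, although the choroid plexus median was -2.16 with the 17 libraries kept and -2.88 with the 12 separate ones, and reactive astrocyte genes had a median of 0.11. Seen as sums, the 10 members were at 5706 to 10860 CPM in TRAP and 4942 to 7691 CPM in bulk, the microglia list at 7.99 to 231 CPM against 281 to 343 CPM, and the inhibitory neuron list at 49.9 to 930 CPM against 681 to 1037 CPM.

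**Figure D2:**
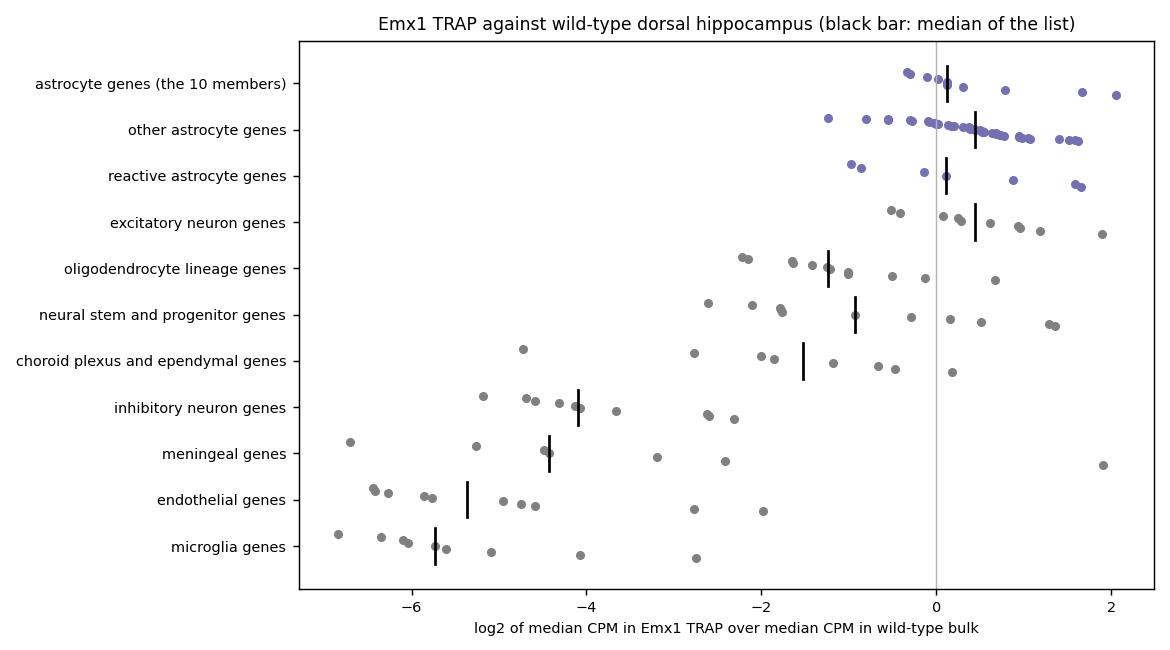
Log2 of the median CPM over 20 Emx1 TRAP libraries divided by the median CPM over 24 wild-type bulk columns (horizontal axis), with 1 point per gene, 1 row per gene list and a black bar at the median of the list. The 3 astrocyte lists have medians of 0.12, 0.44 and 0.11, and the medians of the microglia, endothelial, meningeal and inhibitory neuron lists lie below -4, with single genes as high as -2.75, -1.98, 1.90 and -2.32.

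Of the comparisons among TRAP libraries, the one between isolations was where astrocyte genes passed the adjusted test. In an edgeR fit over 17 libraries with exercise as a covariate, all 10 log2 fold changes were negative, that is, lower in SIT than in separate isolation, and 6 of 10 fell at an adjusted p under 0.05. Over all 18843 genes tested, 13.4% were lower in SIT and 12.1% higher by the same rule (25.5% in either direction). At an unadjusted p under 0.05 with more than a 1.3-fold change, 5 of 10 members fell, where 9.79% of genes were lower (15% passed in either direction). The median log2 fold change was -0.45 over the 10 members and -0.0090 over all genes.

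Aqp4 fell by 0.72 on the log2 scale (SE 0.16, adjusted p = 0.0022). It was at 113, 132, 142, 156 and 167 CPM in the 5 SIT libraries and at 170 to 349 CPM (median 213) in the 12 separate libraries, so the groups did not overlap. Slc1a2 fell by 0.67 (SE 0.10, adjusted p = 7.7e-05 by edgeR). It was at 1699, 2091, 2160, 2182 and 2681 CPM in SIT and at 2725 to 4127 CPM (median 3520) in separate libraries, again without overlap. Aldh1l1 fell by 0.68 (SE 0.096, adjusted p = 2.9e-05 by edgeR). It was at 22.7, 25.7, 26.6, 27.6 and 36.3 CPM against 36.8 to 51.6 CPM (median 44.0), with a narrow gap between the highest SIT and the lowest separate library. Such a gap in this direction was present for 5.22% of 14146 genes averaging 1 CPM or more, and 0 of 10 members had the opposite gap, which 4.69% of genes had.

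Slc1a3 fell by 0.56 (SE 0.099, adjusted p = 3.0e-04 by edgeR), from a mean of 639 ± 63.7 CPM (SD, n = 12) to 436 ± 87.2 CPM (SD, n = 5). Gja1 fell by 0.43 (SE 0.14, adjusted p = 0.024 by edgeR) and Aldoc by 0.23 (SE 0.076, adjusted p = 0.027 by edgeR). Without SIT mouse TG7.4.1 the adjusted p became 0.084 for Gja1 and 0.099 for Aldoc. Gja1 also lost its call without mouse NT6.305 (adjusted p = 0.054 by edgeR) or NT6.306 (0.074), and Aldoc without NT6.303 (0.090) or NT6.306 (0.058). The other 4 genes did not pass. Gfap had a log2 fold change of -0.47 (SE 0.27, adjusted p = 0.23 by edgeR), S100b of -0.21 (SE 0.093, adjusted p = 0.10), Sox9 of -0.16 (SE 0.12, adjusted p = 0.38) and Glul of -0.14 (SE 0.15, adjusted p = 0.56). S100b passed without SIT mouse TG7.4.2 (log2 fold change -0.34, adjusted p = 0.0055 by edgeR) and with all 8 SIT libraries (-0.45, adjusted p = 0.015).

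The wider astrocyte list moved with these genes. Of 40 further astrocyte genes, 26 fell and 0 rose at an adjusted p under 0.05, and their median log2 fold change was -0.47. The smallest p values belonged to Grin2c, an NMDA receptor subunit gene that fell by 1.26 on the log2 scale (SE 0.12), to the serine and glycine transporter gene Slc7a10, which fell by 1.13 (SE 0.12), and to Lcat, the gene of the enzyme that esterifies cholesterol on lipoproteins, which fell by 0.87 (SE 0.12). Fgfr3 fell by 0.82 (SE 0.11), the potassium channel gene Kcnj10 by 0.79 (SE 0.13), the clusterin gene Clu by 0.64 (SE 0.091), the GABA transporter gene Slc6a11 by 0.56 (SE 0.090) and Apoe by 0.54 (SE 0.10). Gpr37l1, Mlc1, Slc39a12, Slco1c1, Cst3, Pla2g7, Slc4a4, Entpd2, Acsbg1, Plpp3, Htra1, Ntsr2, Gjb6, Papss2, Dio2, Slc14a1 and Gli3 fell as well. Of the 26 calls, 21 held whichever library was left out. With a block on the leading mouse name (NT6, TG7 or TG9), those of Grin2c, Slc7a10, Lcat, Clu, Kcnj10 and Slco1c1 held. Among the 5 that depended on a single library, leaving out single libraries raised the adjusted p by edgeR to as much as 0.061 for Papss2, 0.075 for Dio2, 0.075 for Slc14a1 and 0.13 for Gli3. Of 10 reactive astrocyte genes 8 were tested, and 2 fell and 0 rose.

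Excitatory neuron genes went both ways, with 4 of 10 higher in SIT and 3 of 10 lower, and a median log2 fold change of 0.097. Inhibitory neuron genes had a median of 0.73, with 2 of 10 higher at an adjusted p under 0.05 and sums of 76.0 to 91.4 CPM in SIT against 49.9 to 366 CPM in separate libraries. Oligodendrocyte lineage genes had a median of 0.12, with 2 of 12 higher and 2 of 12 lower. Microglia genes had a median of 0.47, with 0 of 10 higher and 1 of 10 lower, and sums of 7.99 to 12.2 CPM in SIT and 9.18 to 14.1 CPM in separate libraries. Endothelial genes had a median of -1.02, with 0 of 10 higher and 1 of 10 lower, and sums of 3.56 to 8.39 and 5.59 to 42.6 CPM. The mitochondrial share was 0.245% to 0.523% in SIT and 0.0704% to 0.122% in separate libraries. The part of these in the result was not tested. SIT libraries came from both hippocampi, which cannot be told apart from the isolation. The 5 kept came from mouse series NT6 and TG7.4 and the separate libraries from TG7.3, TG9.1 and TG9.2. With NT6, TG7 and TG9 as a block, a choice made after the data were seen that sets 2 SIT mice against 4 separate ones within TG7, all 10 log2 fold changes stayed negative, and 1 of 10 (Aldh1l1, -0.68, adjusted p = 0.0095 by edgeR) fell at an adjusted p under 0.05, where 4.02% of genes did. In that fit Slc1a2 was at -0.55 (adjusted p = 0.067 by edgeR), Slc1a3 at -0.48 (0.11), Aqp4 at -0.51 (0.21), Gja1 at -0.40 (0.37) and Aldoc at -0.28 (0.23). With the 3 SIT libraries that the study left out added back, 1 of 10 members (Aldh1l1) rather than 3 still had every SIT library below every separate library, which held for 2.41% of genes (1.1% in the opposite direction), and the log2 fold change of Sox9 became 0.02.

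**Figure D3:**
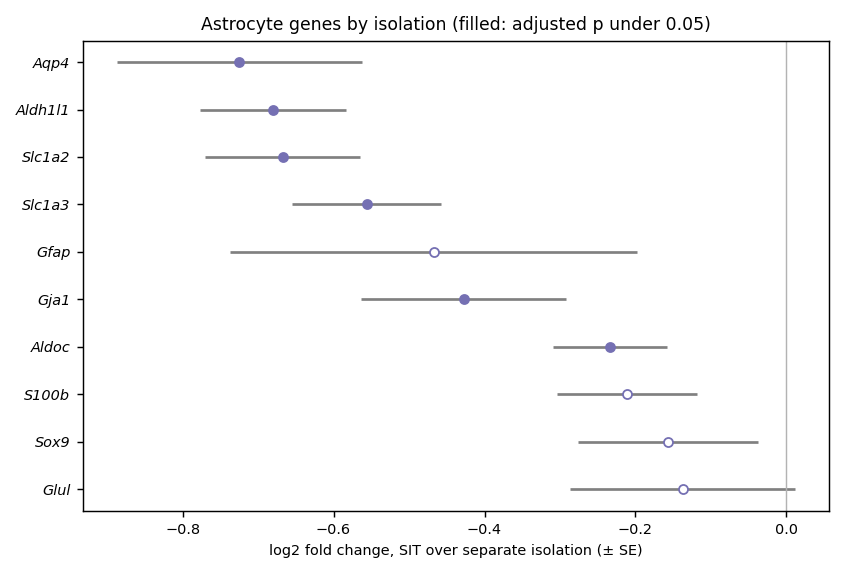
Log2 fold change of each astrocyte gene in SIT over separate isolation (horizontal axis) with its standard error as a bar, from the edgeR fit over 17 libraries; filled points have an adjusted p under 0.05. All 10 points lie below 0, from -0.72 for Aqp4 to -0.14 for Glul, although with all 8 SIT libraries Sox9 was at 0.02.

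The study asked whether early-life exercise changes ribosome-bound RNA. For the astrocyte genes, 0 of 10 reached an adjusted p under 0.05 by edgeR in SIT, in the left hippocampus, in the right hippocampus or in both together, where 0, 0, 0 and 1 of all genes tested did (0.00547% in both together). At an unadjusted p under 0.05 alone, edgeR gave 1000 of 18238 genes in SIT and 699 of 17750 in the left hippocampus. It gave 488 of 17570 genes in the right hippocampus and 981 of 18283 in both together. At an unadjusted p under 0.05 with more than a 1.3-fold change, 1 of 10 (Sox9, lower in ELE) was called in SIT, where 3.73% of 18238 genes were called, and 0 of 10 in the other 3 comparisons. The share of all genes called was 2.12% in the left hippocampus and 2% both in the right and in the sides together.

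In SIT, Sox9 was at 39.0, 29.7 and 39.8 CPM in the 3 ELE libraries and at 50.6 and 49.8 CPM in the 2 sedentary libraries. The groups did not overlap, as was the case for 21.9% of 14103 genes in this comparison. Its log2 fold change was -0.45 (SE 0.15, p = 0.014, adjusted p = 0.90 by edgeR), and the exact two-sided permutation test gave p = 0.1, the smallest value that 10 arrangements allow. The ELE library that the study left out held the highest Sox9 level of all, 71.8 CPM, and the 2 sedentary ones held 48.2 and 40.1 CPM. With all 8 libraries the log2 fold change was -0.097 (adjusted p = 0.91 by edgeR). Sox9 also failed the unadjusted rule without mouse TG7.4.1, NT6.305 or NT6.306, although its sign stayed negative, between -0.54 and -0.31, whichever library was left out. Both sedentary mice kept belong to mouse series NT6, whereas 2 of the 3 ELE mice belong to TG7.4. With the series as a block, a choice made after the data were seen, the log2 fold change of Sox9 was -0.34 (adjusted p = 0.88 by edgeR) and it failed the unadjusted rule. That of Gfap was 0.93 (adjusted p = 0.34 by edgeR), which made Gfap the 1 of 10 members that passed the unadjusted rule, where 5.07% of genes did, and which sets 1 ELE mouse of NT6 against the 2 sedentary ones.

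Aldh1l1 was at 25.7, 22.7 and 26.6 CPM in ELE and at 36.3 and 27.6 CPM in sedentary SIT libraries. Its log2 fold change of -0.34 (SE 0.16, adjusted p = 0.92 by edgeR) became 0.091 with all 8 libraries. The 5 libraries kept did not overlap between the groups (exact permutation p = 0.1, the smallest that 10 arrangements allow), and leaving out 1 of them moved the value between -0.52 and -0.12. Aldh1l1 passed the unadjusted rule without TG7.4.2 (p = 0.038, adjusted p = 0.41 by edgeR) or NT6.306 (p = 0.029, adjusted p = 1.0). Gfap was at 2509, 1169 and 1725 CPM in ELE and at 1224 and 1453 CPM in sedentary libraries, so that 1 ELE library lay below both sedentary ones. Its log2 fold change was 0.45 (SE 0.24, adjusted p = 0.94 by edgeR), and it was 0.14 without ELE mouse NT6.303 and 0.69 without ELE mouse TG7.4.1, where it passed the unadjusted rule (p = 0.0029, adjusted p = 1.0 by edgeR). Without a filter on low counts the same fold change had an adjusted p of 0.0018 by edgeR, and with all 8 libraries the log2 fold change was 0.81 (adjusted p = 0.51 by edgeR), which passed the unadjusted rule although the exact permutation test gave p = 0.14 over 70 arrangements. The other 7 genes had log2 fold changes between -0.11 and 0.10. In the same 5 libraries the sums of 3 other lists were lower in every ELE library than in both sedentary ones. Choroid plexus and ependymal genes were at 149, 263 and 583 CPM in ELE and at 620 and 703 CPM in sedentary mice, meningeal genes at 26.1 to 47.2 and 48.6 to 50.7 CPM, and inhibitory neuron genes at 76.0 to 89.5 and 90.7 to 91.4 CPM. The choroid plexus and ependymal list had a median log2 fold change of -0.61, with 3 of 8 genes lower by the unadjusted rule and 0 at an adjusted p under 0.05 by edgeR. Endothelial genes, at 3.56 to 7.67 and 6.69 to 8.39 CPM, and oligodendrocyte lineage genes, at 2950 to 4197 and 3790 to 4059 CPM, overlapped, although 6 of 6 and 12 of 12 genes tested had negative fold changes. Their part in the values of Sox9, Aldh1l1 and Gfap was not tested.

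In the left hippocampus, Gja1 was at 189, 118 and 201 CPM in ELE and at 196, 224 and 241 CPM in sedentary libraries. The groups overlapped, and its log2 fold change was -0.39 (SE 0.18, p = 0.059, adjusted p = 0.96 by edgeR). Without ELE mouse TG9.1.4, the lowest library, it was -0.20. In the left hippocampus, deviations of ELE and sedentary mice sharing the leading part of their number correlated at 0.33, 0.11 and 0.11. With that part as a block, Gja1 passed the unadjusted rule (log2 fold change -0.42, p = 0.036, adjusted p = 0.92 by edgeR), where 1.9% of genes passed. Gfap was at 1300, 3883 and 1897 CPM in ELE and at 1504, 1931 and 1899 CPM in sedentary libraries. Its log2 fold change of 0.41 (SE 0.35, adjusted p = 0.96 by edgeR) rested on the same mouse and was -0.17 without it. The other 8 genes had log2 fold changes between -0.18 and 0.24. For 0 of 10 members did the groups lie apart, against 10.8% of genes. Summed reactive astrocyte genes were at 121, 141 and 491 CPM in ELE and at 120 to 158 CPM in sedentary libraries, with TG9.1.4 again the highest.

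In the right hippocampus, Aldoc had the smallest p of the members. It was at 1145, 1218 and 1013 CPM in ELE and at 1110, 899 and 1016 CPM in sedentary libraries, a log2 fold change of 0.19 (SE 0.11, adjusted p = 1.0 by edgeR). Gfap was at 1556, 1458 and 3335 CPM in ELE and at 1649, 4129 and 1583 CPM in sedentary libraries, with 1 high library in each group. The 10 log2 fold changes lay between -0.19 and 0.19, and the groups lay apart for 0 of 10 members, against 7.56% of genes. In both hemispheres together, with side as a covariate, they lay between -0.17 (Gja1) and 0.11 (Gfap). The interval of 2 SE around the fold change of Slc1a3 was -0.14 to 0.18, and that around Gfap was -0.50 to 0.73, so the data bound an exercise effect on Slc1a3 more closely than one on Gfap. Exact permutation within each side gave p values of 0.37 (Gja1) to 0.98 (Aqp4) over 400 arrangements. With 3 against 3 libraries no permutation p below 0.1 can be reached.

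Whether exercise acted differently on the 2 sides was tested as an interaction, for which 2.21% of 18810 genes were called by the unadjusted rule. It called 0 of 10 members, either by that rule or at an adjusted p under 0.05. The largest interaction terms were those of Gfap (0.60, SE 0.61) and Gja1 (-0.44, SE 0.26), both with an adjusted p of 1.0 by edgeR. That of Gfap was 0.014 without left ELE mouse TG9.1.4 and 0.00040 without right sedentary mouse TG9.1.1. Over all fits with 1 library left out, it ranged from 0.00040 to 1.08. Between left and right, with exercise as a covariate, 0 of 10 members were called, against 1.15% of 18283 genes by the unadjusted rule. The 10 log2 fold changes lay between -0.16 (Gfap) and 0.12 (S100b, SE 0.072, adjusted p = 1.0 by edgeR).

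**Figure D4:**
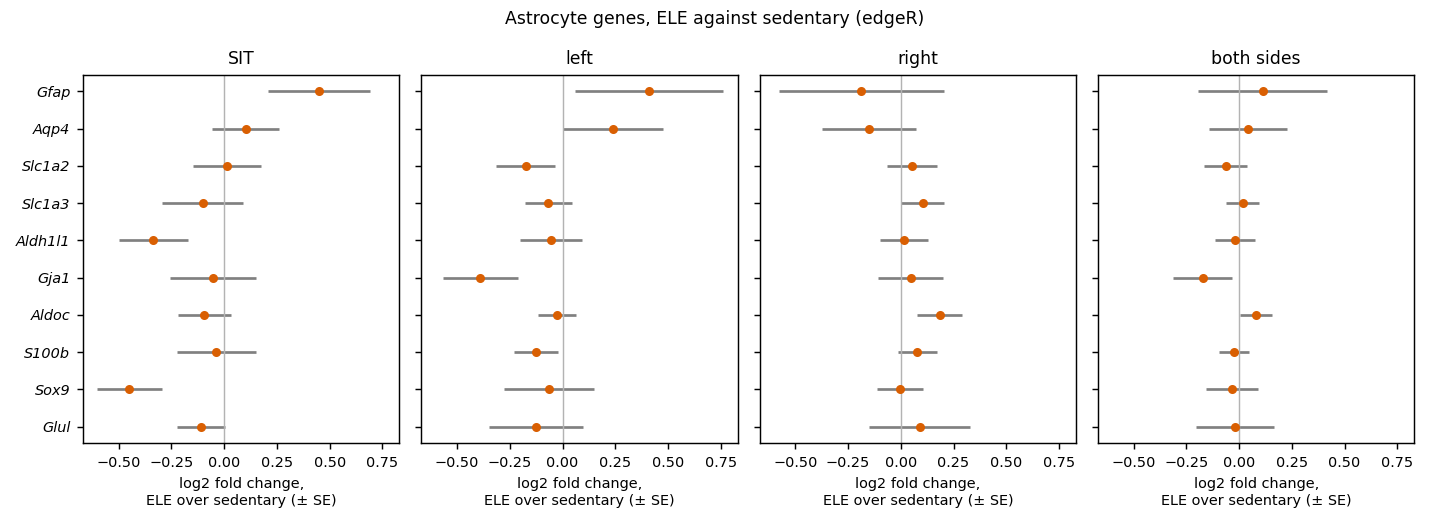
Log2 fold change of each astrocyte gene in ELE over sedentary mice (horizontal axis) with its standard error as a bar, in SIT, in the left and right hippocampus and in both sides together, from edgeR fits. No gene has an adjusted p under 0.05, and the bars of Gfap are the widest in each panel.

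The 40 further astrocyte genes gave 0 calls at an adjusted p under 0.05 in the 4 exercise comparisons, in the interaction and between the sides. In SIT their smallest p values were those of Slco1c1 (log2 fold change -0.60, p = 0.016), Slc25a18 (-0.30, p = 0.17) and Slc4a4 (0.21, p = 0.17), all with an adjusted p of at least 0.90 by edgeR. Of these Slco1c1 passed the unadjusted rule. In the left hippocampus the smallest were Apoe (-0.20, p = 0.020), Slc6a11 (-0.22, p = 0.035) and Slc39a12 (-0.26, p = 0.046), each with an adjusted p of 0.96 by edgeR and less than a 1.3-fold change. In the right hippocampus they were Kcnj10 (0.27, p = 0.010), Cbs (0.26, p = 0.058) and Lcat (0.23, p = 0.096), with an adjusted p of 1.0 by edgeR. In both sides together they were Slc6a11 (-0.14, p = 0.052), Slc25a18 (-0.21, p = 0.079) and F3 (0.17, p = 0.11), with an adjusted p of 0.91 by edgeR. Between the sides they were Cst3 (0.12, p = 0.056), Grin2c (-0.19, p = 0.087) and Ndrg2 (0.14, p = 0.14), and in the interaction Cbs (-0.41, p = 0.030) and Htra1 (-0.32, p = 0.040), with adjusted p values of 1.0 by edgeR. Cbs passed the unadjusted rule in the interaction.

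Within the groups, the 10 genes did not vary as one. The libraries of 4 mice stood apart by Gfap: left ELE mouse TG9.1.4 at 3883 CPM, right ELE mouse TG9.2.1 at 3335 CPM, right sedentary mouse TG9.1.1 at 4129 CPM and the SIT ELE mouse NT6.304, left out by the study, at 3214 CPM. The other 16 libraries were at 640 to 2509 CPM (median 1538). These 4 libraries belong to 4 different groups, 3 ELE and 1 sedentary. The first 3 of them held the highest Aqp4 levels of all, at 349, 309 and 322 CPM, whereas NT6.304 was at 167 CPM, near the median of the others (179 CPM). All 4 were low in Glul, at 997, 1271, 915 and 887 CPM against a median of 1633 CPM in the others, although other libraries reached as low as 809 CPM.

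Reactive astrocyte genes were high in the same 4 libraries. Their sum was 310 to 507 CPM there and 84.4 to 237 CPM (median 121) in the other 16. Serpina3n, a protease inhibitor of reactive astrocytes, was at 229, 146, 233 and 281 CPM against 36.8 to 126 CPM. Osmr, the oncostatin M receptor, was at 13.1 to 24.4 CPM against 2.87 to 12.2 CPM, and Vim, the intermediate filament vimentin, at 40.3 to 90.9 CPM against 12.1 to 33.1 CPM. S100a10 was at 26.2 to 58.0 CPM against 10.1 to 22.4 CPM. These 4 of 10 genes on the list were higher in each of the 4 libraries than in any other, and 0 of 10 were lower in each, in a division made by Gfap. Of 14219 genes averaging 1 CPM or more, 1.69% were higher in the same way and 0.584% lower. The other 6 genes overlapped. Cd44 was at 19.2 to 60.5 CPM against 1.92 to 20.2 CPM. The complement gene C4b was at 51.4, 61.2, 60.9 and 20.7 CPM against 9.01 to 48.9 CPM. Lcn2 and Steap4, also on the list, had a median of 0 counts.

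Genes of other cell types moved with these libraries in part. Summed inhibitory neuron genes were at 366 CPM in TG9.1.4, 81.5 CPM in TG9.2.1, 140 CPM in TG9.1.1 and 886 CPM in NT6.304, against 49.9 to 91.4 CPM in the 14 others that the study kept, so that 3 of the 4 lay above all 14. The 2 sedentary libraries left out, which were not high in Gfap, reached 911 and 930 CPM. Microglia genes were at 9.27 to 15.9 CPM in sum in the 4 libraries and at 7.99 to 12.2 CPM in the 14 others kept, with TG9.1.4 (14.1 CPM) and NT6.304 (15.9 CPM) above all 14, and the microglia markers Tmem119 and P2ry12 had medians of 0.35 and 0.79 CPM over all TRAP libraries. Endothelial genes were at 4.37 to 6.5 CPM against 3.56 to 42.6 CPM (median 7.9 over all 16 others, 7.75 over the 14 kept). Choroid plexus and ependymal genes were at 44.4 to 308 CPM against 33.4 to 1294 CPM (median 542 over the 16, 423 over the 14). Neural stem and progenitor genes, at 187 to 274 CPM, lay in all 4 below the 14 others kept (278 to 365 CPM). The 2 sedentary libraries left out, at 204 and 214 CPM, lay within the range of the 4. Oligodendrocyte lineage genes were at 2700 to 3802 CPM against 2950 to 4197 CPM in the 14 others kept. Meningeal genes were at 10.5 to 33.3 CPM against 18.8 to 50.7 CPM in those 14. In each of these 2 lists, 2 of the 4 lay below all 14. Their part in the Gfap levels was not tested.

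As deviations of log2 CPM from the mean of their group over the 20 libraries, Gfap went with Aqp4 (Pearson r = 0.84) and Sox9 (r = 0.70), and against Glul (r = -0.66) and Gja1 (r = -0.52). Glul went with Aldoc (r = 0.84) and Gja1 (r = 0.79), Slc1a3 with Gja1 (r = 0.86) and Slc1a2 (r = 0.71), and Aldoc with S100b (r = 0.83). Over the 12 separate libraries alone, r was 0.965 for Gfap with Aqp4, 0.65 for Gfap with Sox9, -0.90 for Gfap with Glul and -0.77 for Gfap with Gja1. It was 0.88 for Glul with Aldoc, 0.93 for Glul with Gja1, 0.82 for Slc1a3 with Gja1 and 0.80 for Slc1a3 with Slc1a2, but -0.072 for Aldoc with S100b, whose relation rested on the SIT libraries. Without the 4 libraries high in Gfap, r over the other 16 was 0.70 for Gfap with Aqp4, 0.63 for Gfap with Sox9, -0.21 for Gfap with Glul and 0.0054 for Gfap with Gja1. The libraries share depth, isolation and mouse series in part, and the correlations are a description.

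**Figure D5:**
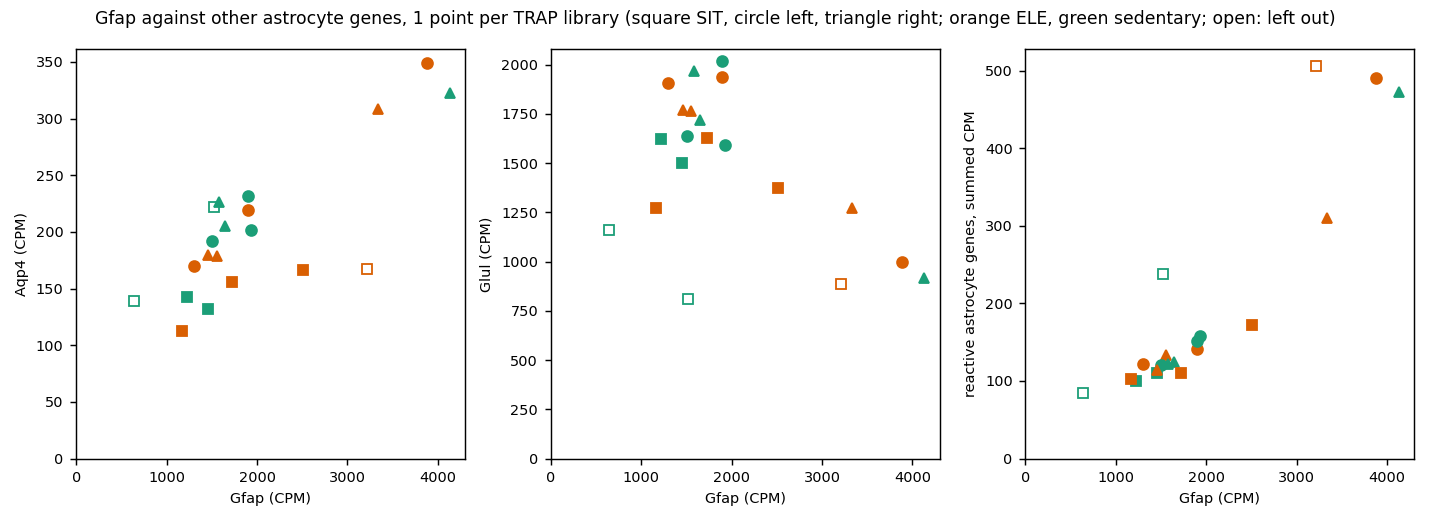
Gfap level (horizontal axis, CPM) against Aqp4, Glul and the summed reactive astrocyte genes (vertical axes, CPM), with 1 point per TRAP library; squares are SIT, circles left, triangles right, orange ELE, green sedentary and open points left out by the study. The 4 libraries above 3000 CPM of Gfap have reactive sums of 310 to 507 CPM and Glul levels of 887 to 1271 CPM.

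The genes whose deviations were most like the mean of the 10 members, among the 11181 genes that averaged 5 CPM or more, were Clu (r = 0.94), Agpat3 (0.92), Ccdc86 (0.92), Axl (0.90), Emp2 (0.89), Mlc1 (0.88), Cpe (0.88) and Tril (0.87), over 20 libraries. Those most like Gfap by itself were Hkdc1 (r = 0.94), Cd9 (0.93), Podxl2 (0.93) and Dhrs1 (0.92), a set looked at after the values of Gfap were seen. Clu and Mlc1 are among the 40 further astrocyte genes. Both sets of values are over all 20 libraries, with the 3 that the study left out among them.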

How the data were processed

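Ribosome-bound RNA was sequenced from 20 Emx1-NuTRAP libraries and bulk RNA from 24 wild-type columns. Both deposited tables hold raw counts per gene. To make them, the authors aligned reads with STAR 2.7.3a to GRCm38, removed duplicates with Picard 1.87 and counted reads per gene by strand with GenomicAlignments. Duplicate removal lowers the counts of the most abundant genes. TRAP columns are mouse numbers, and their groups came from the study's list of mice, so they could not be tied to single GEO samples. The 5 SIT libraries kept were those whose mean normalized counts matched those in the study's gene table for 633 of 633 genes. That table, which also holds the authors' own fold changes and p-values, served only to find the libraries. Each TRAP library is 1 mouse.

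Levels are CPM of the library total. Counts were tested with the quasi-likelihood test of edgeR 4.0.16 (R 4.3.3) after filterByExpr and TMM, with Benjamini-Hochberg adjustment over all genes tested. The standard error is the fold change divided by the root of its F value. Exact two-sided permutation tests used log2(CPM + 0.5). DESeq2 1.42.0, median-of-ratios size factors, no filter, single libraries left out, all 8 SIT libraries and a block on the first part of the mouse number were alternatives. The fit was checked on simulated counts. Emx1 TRAP and bulk were compared by medians over 34793 shared symbols, without a test. Names came from GENCODE, which matched 55154 of 55335 identifiers without their version.

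The named genes were the 10 members in every comparison (by a range where none was called), of the 40 further astrocyte genes those called or else the 3 with the smallest p (1 of these genes is not reported here), the 4 highest and 4 lowest ratios to bulk, and the 8 genes most like the members. The members and lists were chosen with earlier results of these data known. Every pair of replicates differed by more than sampling noise (chi-square per gene of 18.9 or more). ELE and sedentary mice with the same leading number had correlations of their deviations of 0.33, 0.11 and 0.11 in the left hippocampus, against 0.036 or less for mice with different numbers, so there the numbers were taken as a block beside the main result, as a hint from the data. In the right they were 0.38, -0.096 and -0.12, and the numbers were not taken as pairs.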

Additional observations from a re-analysis of the deposited data

Results flagged for a closer look

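Among the 20 sets of 4 SIT libraries examined (10 genes in ELE and sedentary mice), 1 held a library far from the other 3, as chance gives for about 1 in 20: Aqp4 in sedentary SIT was at 222 CPM in mouse NT7.2.3, against 142, 132 and 139 CPM in the other 3. That library is among those the study left out and was used in none of the tests of 5 SIT libraries. Its mitochondrial share was 8.64%, its summed microglia genes were at 224 CPM and its Cd44 at 20.2 CPM. Groups of 3 libraries were not examined in this way.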

How the results depend on the processing

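Among the fold changes given singly, 4 changed sign, and of all 10 members, most of them with fold changes near 0, up to 5 turned in SIT with all 8 libraries and up to 8 in the right hippocampus when a library was left out. With all 8 SIT libraries the log2 fold change of Aldh1l1 in SIT mice given ELE was 0.091, that of Slc4a4 was -0.28 (-0.0068 with a block on the mouse series), and that of Sox9 in SIT against separate isolation was 0.017. That of Gfap in the left hippocampus ranged from -0.17 to 0.71 when single libraries were left out. The cause was not tested. The members' median log2 ratio to bulk stayed between 0.042 and 0.25 under the alternatives, a move smaller than its SD over the 20 libraries (0.26), although the highest value, from the 12 separate libraries, exceeded the SD over those (0.13), and Sox9 was at -0.02 with 17 TRAP libraries or without mitochondrial and ribosomal RNA genes in the totals and at -0.05 against the 18 bulk columns named WT, a choice made after the data were seen, and Aldh1l1 was at 0.05 with the 12 separate libraries.

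Counts of genes depended on the method. In SIT, 681 genes passed the unadjusted rule and 0 the adjusted test. With all 8 libraries 1375 passed the unadjusted rule, DESeq2 gave 14 at an adjusted p under 0.05 and no filter gave 105, among them 1 member (Gfap), and without the filter 2 members (Sox9 and Gfap) passed the unadjusted rule. In the left hippocampus 376 genes and 0 members passed the unadjusted rule, against 566 genes by DESeq2 and 703 without a filter, each with 1 member (Gja1). In the right hippocampus the count went from 351 to 719 without a filter, and the adjusted test gave 14 by DESeq2 and 27 without a filter. In both sides together it went from 366 to 622 by DESeq2 and 972 without a filter, and the adjusted count from 1 to 11 and 3. Between the sides it went from 211 to 430 and 669. In the interaction it went from 416 to 1047 without a filter, with 1 member (Gja1), and the adjusted count from 0 to 2 by DESeq2 and 6 without a filter. In the isolation comparison it went from 2821 to 4330 without a filter.

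Leaving out single libraries moved the unadjusted count between 357 and 1122 in SIT, 225 and 975 in the left hippocampus, 311 and 657 in the right, 302 and 598 in both, 196 and 447 between the sides, and 357 and 727 in the interaction. The adjusted count moved between 0 and 3 in SIT and in the right hippocampus, 0 and 1 in the left and in both, and 0 and 2 in the interaction. The number of members past the unadjusted rule moved between 0 and 2 in SIT and in the left hippocampus (there Aqp4 and Gfap without TG7.3.2, or Gja1 without TG9.2.2), and 0 and 1 in the right (Aqp4, without TG9.2.1) and in the interaction (Gja1). In the isolation comparison 4 to 7 members passed the adjusted test. Without a sedentary SIT mouse 1 library was left in that arm and was assumed to vary like the others.

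With the leading part of each mouse's number (TG7.3, TG9.1 or TG9.2) as a replicate block, 353 genes passed the unadjusted rule in the left hippocampus, with 1 member (Gja1, log2 fold change -0.42, adjusted p = 0.92 by edgeR), 332 in the right, 453 in both, 239 between the sides and 437 in the interaction. Deviations of same-numbered mice correlated at 0.33, 0.11 and 0.11 in the left hippocampus and at 0.38, -0.096 and -0.12 in the right. The adjusted call of no member changed in these fits. In SIT, a replicate block on the mouse series, added after the data were seen, gave 1011 genes by the unadjusted rule and 2 by the adjusted test, and 1 member by the unadjusted rule (Gfap, where it had been Sox9). In SIT against separate isolation, a block on NT6, TG7 or TG9, also added after the data were seen, lowered the adjusted count from 4801 to 1367 genes and from 6 members to 1 (Aldh1l1), and of the 26 further astrocyte genes 6 held in this fit and in all others. A total of 3 ELE and 2 sedentary libraries in SIT, and 3 against 3 in each side, limit the precision of every exercise comparison.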

Other observations

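Of 12 neural stem and progenitor genes, some of which astrocytes share, 1 was higher and 1 lower in SIT than in separate isolation at an adjusted p under 0.05 by edgeR, where 12.1% of all genes were higher and 13.4% lower, with a median log2 fold change of 0.19. Their sum was 295 to 365 CPM in the 5 SIT libraries kept and 225 to 325 CPM in the 12 separate libraries, so the ranges overlapped.

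Choroid plexus and ependymal genes varied widely within every kind of library. Their sum was 33.4 to 1294 CPM in TRAP and 30.5 to 9466 CPM in the bulk columns, and 1 of 8 fell in SIT at an adjusted p under 0.05 by edgeR.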
